A study of Mus musculus with 6 samples.

Results

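The starting RNA of the heart lysate, called Input, was described from 2 libraries of the 6 in the series. They were chosen by their labels alone, as the libraries made from the lysate without an antibody. All 6 libraries came from whole hearts of C57BL6/J mice aged 4 weeks. The other 4 were RNA immunoprecipitates (RIP), in which an antibody pulls a protein and its RNA out of the lysate: 2 with an antibody against Cnot3, a subunit of a complex that shortens the poly(A) tails of mRNAs (Cnot3 RIP), and 2 with a control antibody (control IgG RIP). No genotype or treatment is labelled for any of the animals, and the labels give neither their sex nor whether hearts were pooled, nor whether the replicates came from separate animals. A p-value here therefore reflects how far libraries of a group lay apart, and that spread may be technical. In the limma test used below, the spread of each gene is drawn partly from other genes of like level. Of the 24421 gene entries in the table, 3 were removed (Rn45s, Lars2 and Mir6236), and the values of the other 24418 were rescaled to 1000000 in each library. This unit is called rescaled CPM (reads per 1000000) from here on. Rescaled CPM ranks genes by their reads, which grow with transcript length. The leading members of lists are named by reads, so long genes are favoured there. Where levels per kilobase are named, genes were set against each other as rescaled CPM per kilobase of exon.

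A working heart muscle cell is filled with sarcomeres, the contractile units in which myosin motors pull on actin filaments under the control of calcium. Calcium is released from and pumped back into the sarcoplasmic reticulum at each beat, and the ATP for both steps comes mostly from mitochondria that burn fatty acids. In the mouse, the heart changes after birth from glycolysis and fetal sarcomere isoforms towards fatty acid oxidation and adult isoforms. Cardiomyocytes fill most of the heart's volume, but fibroblasts, endothelial cells, mural cells and macrophages make up much of its cell number.

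The deposited values held whole reads, 15713318 in Input replicate 1 and 33479580 in Input replicate 2. Rn45s, the ribosomal RNA precursor, took 78.3% and 79.2% of them, Lars2 took 1.75% and 1.37%, and Mir6236 took 0.885% and 0.815%. After their removal 2993775 and 6223246 reads were left, against 6609470 to 12154875 in the 4 immunoprecipitates. A gene listed at 0 could hold up to 3 reads by counting error, which is 1.002 rescaled CPM in replicate 1 and 0.482 in replicate 2. The exact Clopper-Pearson 95% intervals of the shares of gene classes reached no farther than 0.0553 percentage points to either side. Floors and intervals cover counting error only, because the reads carry no molecular identifiers and may repeat a molecule. Across the 8697 genes with a mean of at least 10 rescaled CPM, the log2 values of the Input libraries had a Pearson r of 0.968 and a Spearman rho of 0.958, which describes these libraries, since genes are not independent replicates.

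The lysate was dominated by a few muscle transcripts. The most abundant gene, Ttn, held 9.08% of the rescaled reads in replicate 1 and 8.97% in replicate 2. The 10 most abundant genes together held 20.5% and 20.7%, and 410 and 341 genes were enough to reach 50% of the reads. Protein-coding genes made up 96.7% and 97.7%. Genes of the mitochondrial genome had no entries in the table and were not analysed here, so every mitochondrial value below is for nuclear genes.

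Contractile genes were the largest of the described classes. The 54 genes of the sarcomere and myofibril list held 18.5% of the rescaled reads in Input replicate 1 and 19.5% in replicate 2, or 18.98% ± 0.676 (SD, n = 2). The 217 nuclear genes of mitochondrial proteins held 6.48% and 7.46%, and 24 calcium handling genes 4.25% and 4.45%. The 35 genes of cytosolic energy transfer and glycolysis held 2.69% and 3.34%. The 14 nuclear noncoding RNAs followed with 2.73% and 1.86%, and 54 stromal genes with 1.68% and 1.37%. Vascular genes (60) held 0.788% and 0.663%, translation factors (25) 0.612% and 0.671%, cytosolic ribosomal proteins (86) 0.219% and 0.220%, and immune genes (63) 0.0924% and 0.110%. The 23566 genes in none of the lists held 61.0% and 59.4%, with Pde4dip, a scaffold protein of the myofibril and centrosome, as the most abundant among them. In a bulk lysate a class with few reads can mean few cells of a type or little RNA per cell, and these cannot be told apart.

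**Figure D1:**
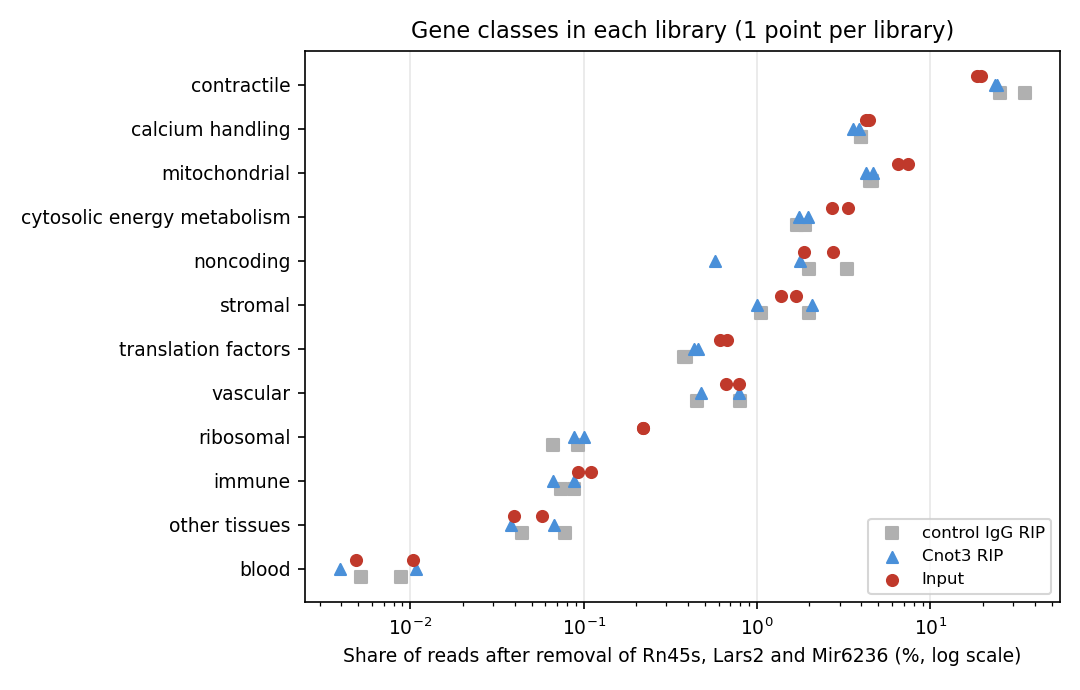
Share of the reads left after removal of Rn45s, Lars2 and Mir6236 that fell in each gene class, on a log axis, with 1 point per library (red circles Input, blue triangles Cnot3 RIP, grey squares control IgG RIP). Contractile genes are the largest class in every library, at 18.5% and 19.5% in Input and 23.6% to 35.3% in the immunoprecipitates, while Input lies above all 4 immunoprecipitates for mitochondrial and ribosomal genes.

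Read shares favour long transcripts, and the order of the classes changed when levels were taken per kilobase. Counted per kilobase of exon, contractile genes held 12.1% of the summed level in replicate 1 and 13.2% in replicate 2, and mitochondrial genes held 12.6% and 14.0%. The mitochondrial class was thus the larger in each Input library on that scale. Without Ttn, whose exons span 116825 bases when all transcripts are merged, the contractile share of reads was 10.9% as the mean of the libraries. Cytosolic energy genes held 4.75% and 5.89% per kilobase, noncoding RNAs 5.56% and 4.65%, and ribosomal proteins 0.569% and 0.588%.

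Sarcomere genes led the ranking by reads. Ttn, on chromosome 2 (76703980 to 76982547, minus strand, mm10), encodes titin, the giant spring that spans the sarcomere from disc to middle. It stood at 90768 and 89694 rescaled CPM. Myh6, the fast adult alpha myosin heavy chain on chromosome 14 (54941921 to 54966927, minus strand), stood at 29716 and 34600 rescaled CPM. Actc1, the cardiac alpha actin of the thin filament on chromosome 2 (114047282 to 114053548, minus strand), stood at 10597 and 10515. Titin and actin thus differed little between the libraries, while Myh6 was higher in replicate 2. Tpm1, the tropomyosin that covers the myosin binding sites of actin, followed at 7187 and 7615. Tnnt2, the troponin subunit that anchors the complex to tropomyosin, was at 4313 and 4446, and Mybpc3, the myosin binding protein that tunes cross-bridge cycling, at 3589 and 3877.

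Per kilobase the order was different, and short mRNAs of thin filament, light chain and energy genes stood beside the myosin heavy chain. With merged exons as the length, Actc1 was the most abundant mRNA, at 6549 and 6499 rescaled CPM per kilobase. It ranked 2 with the longest transcript, after Mb, and 3 with coding length, after Pln and Mb. Mb, the oxygen store myoglobin on chromosome 15 (77015487 to 77050670, minus strand), was at 4772 and 6249, and Myh6 at 4418 and 5144 rescaled CPM per kilobase. On this length these 3 stood apart from Atp2a2, the calcium pump of the sarcoplasmic reticulum, at 2891 and 3286, and from its inhibitor Pln, phospholamban, at 2726 and 2667. With coding length, as means of the libraries, Pln was at 47692 and first, Atp2a2 at 5996 and Myh6 at 5531, so that the order of pump, inhibitor and myosin depended on the length used. The ventricular light chains Myl2 and Myl3 came next, at 2237 and 2461 and at 1556 and 1901 rescaled CPM per kilobase. Titin was at 777 and 768 on this scale and ranked 22 among protein-coding genes.

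**Figure D2:**
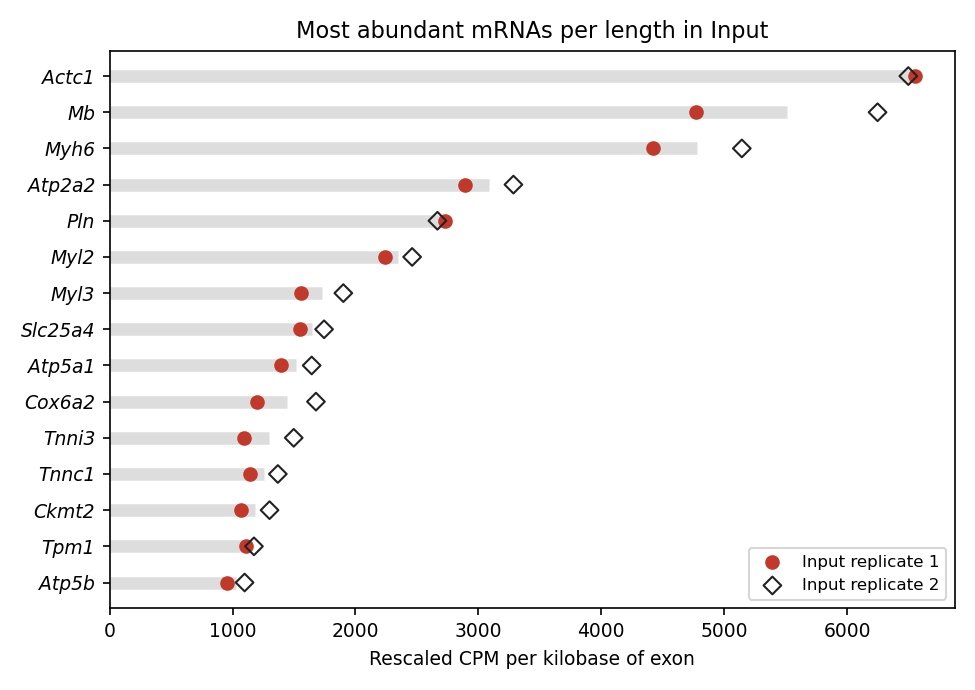
Rescaled CPM per kilobase of exon for the 15 most abundant protein-coding genes in Input, with replicate 1 as red circles, replicate 2 as open diamonds and a grey bar from 0 to their mean. Actc1, Mb and Myh6 lie above 4000 in both libraries, and the other 12 genes lie below all 3 of them in both libraries.

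The lower places per kilobase were shared by mitochondrial and troponin genes. Slc25a4, the heart type carrier that swaps ATP for ADP across the inner membrane, was at 1545 and 1745 rescaled CPM per kilobase. Atp5a1 and Atp5b, the alpha and beta subunits of the ATP synthase head, were at 1393 and 1644 and at 957 and 1098. Cox6a2, a heart and muscle subunit of cytochrome oxidase, was at 1201 and 1679, and Ckmt2, the mitochondrial creatine kinase of striated muscle, at 1072 and 1301. Tnni3, the inhibitory troponin subunit of the adult heart, was at 1096 and 1498, and Tnnc1, its calcium sensor, at 1139 and 1369 rescaled CPM per kilobase. All 15 leading mRNAs were the same genes in each Input library. With the longest transcript in place of merged exons 13 of these 15 remained among the first 15, and with coding length 12 did. Neighbours in the lower part of the order, such as Tnnc1, Ckmt2 and Tpm1, lay within the difference between the libraries.

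The stretch before the start site where a TATA box usually lies was read for the genes of each list. The RefSeq promoter table (GRCm38.p6) was searched for the letters TATA, which read the same on both strands, from 45 to 16 bases before the annotated start. The capitals below mark them. Shown are 5 sarcomere genes with the letters and, for contrast, 2 abundant sarcomere genes and 2 mitochondrial genes without them; Ttn is the most abundant gene by reads and Actc1 the most abundant mRNA per kilobase of merged exons.
Ttn (chr2:76982563-76982592, minus): tcagcagatctggggaaTATAagggccggc
Myl3 (chr9:110763633-110763662, plus): ggctggggtcatgaggTATAtgagcaggat
Tnnc1 (chr14:31208267-31208296, plus): aggtggagggaggcagggcTATATAagccc
Myh7 (chr14:54994565-54994594, minus, the second of its starts in the table): accctgctgccccaTATATAcagcccctga
Ankrd1 (chr19:36119860-36119889, minus): atctcacccagccctagcTATATAacgggc
Actc1 (chr2:114052891-114052920, minus): aaataaggcaaggtggcagatcaggggccc
Myh6 (chr14:54966623-54966652, minus): cccagcagaggactccaaatttaggcagca
Atp5b (chr10:128083262-128083291, plus): ccgccccagctgcaggaccggcggagagga
Cs (chr10:128337682-128337711, plus): aggccggggtgggtcgccggaggggggcgg

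Of the 54 sarcomere genes, 44 had a promoter in the table and 11 of these (25%) held TATA in the window. They were Myh7, Myl3, Tnnc1, Ttn, Myoz2, Trim63, Unc45b, Smyd1, Fhl2, Ankrd1 and Mypn. Among the 184 mitochondrial genes with a promoter, 4 (2.17%) held it, which were Cox7b, Atp5d, Ckmt1 and Mrpl22. The share was 8.09% among all 17223 genes of the table with a promoter, 4.14% among the 6692 with at least 10 rescaled CPM in Input and 16% among the 100 most abundant. None of the 16 calcium handling genes with a promoter held it, and 7 of 64 ribosomal protein genes (10.9%) did. Shares as high as that of sarcomere genes or higher were found in lists of genes low in this lysate: 4 of 14 skeletal muscle genes (28.6%), 4 of 9 fat genes (44.4%) and 6 of 13 genes of red cells and platelets (46.2%). Endothelial genes had 4 of 22 (18.2%). A gene counted once if any of its listed starts had the letters. A match is a description of these letters and not a shown binding site, and its absence says only that they are not in this window.

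Calcium handling transcripts were led by the pump, its inhibitor and the release channel. Atp2a2 stood at 17580 and 19980 rescaled CPM, on chromosome 5 (122453513 to 122502225, minus strand). Pln stood at 7521 and 7359 and Ryr2, the ryanodine receptor that releases calcium, at 7031 and 7158. Pln and Ryr2 differed little between the libraries, and the pump was higher in replicate 2. Srl, a calcium binding protein of the reticulum, was at 2082 and 2054 rescaled CPM, Slc8a1, the sodium calcium exchanger of the surface membrane, at 1431 and 1069, and Casq2, the calcium store of the reticulum, at 1272 and 1148. Per kilobase, the long Ryr2 was at 244 and 249, below Casq2 at 465 and 419 rescaled CPM per kilobase. All 24 genes of the list had at least a read in Input, and 21 had at least 10 reads in each library.

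Mitochondrial genes held their share across all steps from fuel to ATP. Citric acid cycle genes (18) held 1.43% and 1.65% of the rescaled reads, ATP synthase genes (17) 1.22% and 1.37%, and respiratory complexes II to IV (28) 1.15% and 1.29%. Carriers and channels (17) held 0.843% and 0.946%, fatty acid oxidation (23) 0.830% and 1.07%, and complex I (37) 0.750% and 0.835%. Mitochondrial ribosomal proteins (77) held 0.267% and 0.290%. Every one of these 7 lists was the higher in replicate 2, and the median log2 difference from replicate 1, over members with a mean of at least 10 rescaled CPM, ranged from 0.12 in carriers and channels to 0.38 in fatty acid oxidation, against -0.08 over the 8697 genes compared.

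Within the citric acid cycle, Ogdh, the 2-oxoglutarate dehydrogenase, led at 3017 and 3655 rescaled CPM, ahead of Cs, the citrate synthase, at 1808 and 1859. Sdha, the flavoprotein that joins the cycle to the respiratory chain, was at 1538 and 1722. Fatty acid oxidation was led by Acsl1, which activates fatty acids, at 1073 and 1379, and Hadha, part of the trifunctional protein, at 998 and 1362 rescaled CPM. Acadl, Acadvl, Acadm and Acaa2, enzymes of the same spiral, lay between 586 and 936. In complex I the core subunits Ndufs1 (694 and 709) and Ndufv1 (559 and 691 rescaled CPM) were among the leading genes. Ndufs5 was the single complex I gene listed at 0 in both libraries, and 31.1% of its 50-base words also occur in transcripts of other genes.

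The list of cytosolic energy transfer and glycolysis was led by the oxygen store myoglobin, at 7120 and 9323 rescaled CPM. Lpl, the lipoprotein lipase that frees fatty acids at the vessel wall, followed at 6180 and 7039. Cd36, a fatty acid transporter, was at 1503 and 1712, Pygm, the muscle glycogen phosphorylase, at 1058 and 1325, Aldoa, an aldolase of glycolysis, at 1065 and 1312, and Ckm, the cytosolic creatine kinase of muscle, at 943 and 1248. All 6 were higher in replicate 2. Pdk4, the kinase that shuts pyruvate out of the citric acid cycle, had a larger gap, at 275 and 982 rescaled CPM.

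Some genes that nearly every cell uses had low entries. Gapdh, a glycolytic enzyme made by nearly every cell, was listed at 3.01 and 1.93 rescaled CPM, and Eno1, the ubiquitous enolase, at 0 in both libraries. Of their 50-base words, 27.2% and 72.2% also occur in transcripts of other genes in GENCODE M21. Throughout, only genes that do not overlap in the genome counted as other genes, and words were read on the transcript strand. Reads that fall in overlapping genes are not seen by this measure. Among the 86 cytosolic ribosomal protein genes, 54 share over 20% of their words in this way. The median level of those 54 was 1.47 and 1.05 rescaled CPM per kilobase, against 7.10 and 4.53 for the other 32, a division that was made after the values were seen. Highly shared genes were not all low: as means of the libraries Rplp1 was at 141 rescaled CPM per kilobase and Fabp3, a fatty acid binding protein with 29.2% shared, at 907, and Myh6, with 22.6% shared, was second by reads. Rpl26, Rpl10l, Rps23, Rpl30, Rpl39l, Rps27 and Rpl34 were listed at 0 in both libraries, and 4 of these 7 (Rpl10l, Rpl30, Rpl39l and Rpl34) share under 20% of their words. How reads that fit several places were counted is not given in the sources used here, and the part of shared sequence in these levels was not tested.

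The ribosomal protein genes with the largest entries were Rpl4 at 266 and 253 rescaled CPM, Rpl8 at 175 and 202 and Rpl3l at 167 and 222. Rpl3l, the striated muscle version of Rpl3, shares none of its words with other genes, while Rpl3, with 58.4% shared, was listed at 4.68 and 1.77. Mitochondrial ribosomal proteins, of which 5 of 77 share over 20%, had a median of 12.3 and 14.0 rescaled CPM per kilobase and ranged up to 87.4 in Mrps23. Among translation factors Eif4g2, a scaffold of initiation, was at 1549 and 1433, Eef2, the translocation factor of elongation, at 995 and 1245, and Eef1a2, the muscle and nerve version of elongation factor 1A, at 912 and 1292 rescaled CPM.

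Pairs of genes that encode alternative versions of the same protein showed which version the lysate held, as ratios of levels per kilobase. The adult myosin Myh6 exceeded Myh7, the slow myosin of the fetal mouse ventricle, 78.6-fold in replicate 1 (95% counting interval 74.7 to 82.9) and 120-fold in replicate 2 (115 to 125). The intervals do not overlap, so the libraries differed by more than counting error. The genes share 22.6% and 22.2% of their words with other genes, whose part in this was not tested. Tnni3 exceeded Tnni1, the slow skeletal and fetal troponin I, which had 1 read in replicate 1 and 2 in replicate 2, so the ratio of 11814 had an interval from 2120 to 466691 and that of 16779 an interval from 4644 to 138562; with coding length it was 7237 as the mean of the libraries. Actc1 exceeded the skeletal actin Acta1 46.2-fold (42.7 to 49.99) and 43.8-fold (41.5 to 46.2), which overlap.

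Muscle versions also led among energy genes. Slc25a4 exceeded Slc25a5 35.8-fold and 48.6-fold, although Slc25a5 shares 46.6% of its words. Ckm exceeded the brain type Ckb 46.0-fold and 66.0-fold, Cox6a2 exceeded Cox6a1 18.8-fold and 24.1-fold, and Cox8b exceeded Cox8a 20.9-fold and 16.4-fold (10.4-fold with coding length). Slc2a4, the insulin-responsive glucose transporter, exceeded Slc2a1, the basal one, 27.9-fold and 28.9-fold. Pgam2 exceeded Pgam1 245-fold and 256.2-fold (107-fold with coding length), with 41.5% of the words of Pgam1 shared, and Eef1a2 exceeded Eef1a1 6.79-fold and 10.05-fold, with 56.5% of the words of Eef1a1 shared. The brain type Ckmt1 was listed at 0 in both libraries beside 4768 and 12033 reads of Ckmt2.

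Some pairs were nearer to each other. Cox7a1 exceeded Cox7a2 3.33-fold and 4.52-fold, Hk2 exceeded Hk1 3.27-fold and 3.42-fold, and Ldhb, the lactate dehydrogenase subunit typical of heart, exceeded Ldha 3.11-fold and 4.16-fold. Pygm exceeded Pygb 1.90-fold and 1.91-fold. With coding length, as means of the libraries, these ratios were 2.05 for Cox7a1, 2.41 for Hk2, 1.86 for Ldhb and 1.28 for Pygm. Cpt1b, the muscle version of the enzyme that admits fatty acids to mitochondria, was the only first-named gene below its partner. It was listed at 0.491 (0.365 to 0.651) and 0.459 (0.385 to 0.544) of the level of the liver version Cpt1a, or 0.209 with coding length. These ratios rest on 60 and 162 reads of Cpt1b beside 277 and 800 of Cpt1a. Whether the counting left out reads of Cpt1b was not tested.

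**Figure D3:**
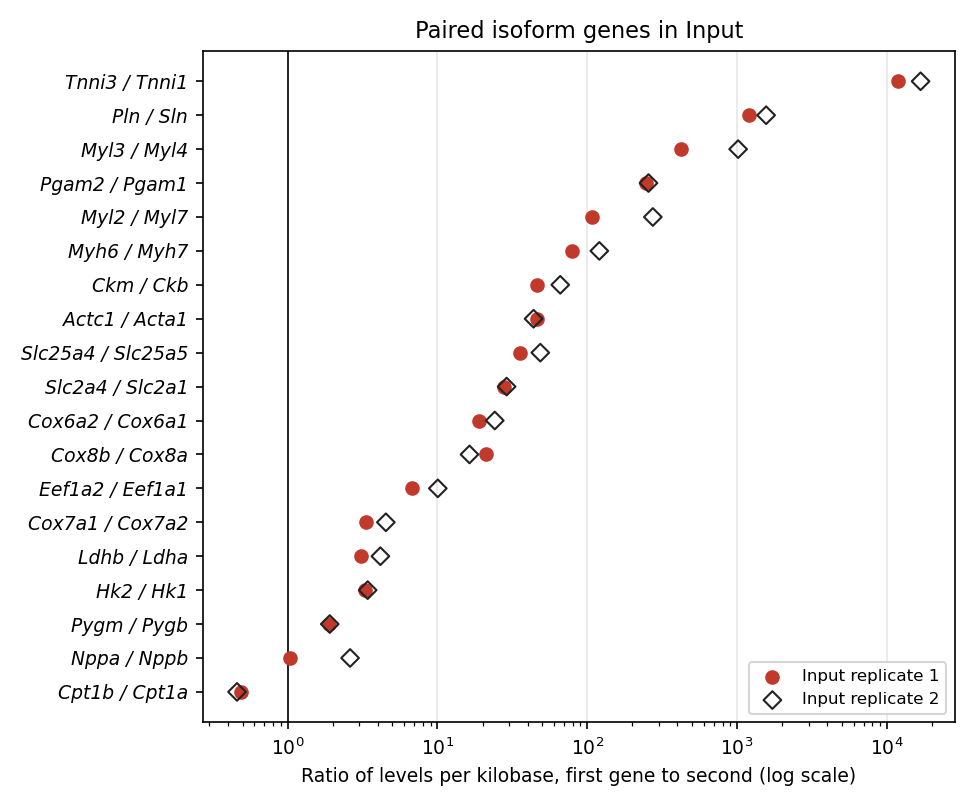
Ratio of the level per kilobase of the first gene to that of the second for 19 gene pairs in Input, on a log axis, with replicate 1 as red circles and replicate 2 as open diamonds. All ratios but that of Cpt1b to Cpt1a lie above 1 (black line), and those of Tnni3 to Tnni1 rest on 1 and 2 reads of Tnni1.

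Atrial genes were low for tissue labelled as whole heart. Myl7, the atrial light chain, was at 12.4 and 5.30 rescaled CPM beside 4361 and 4800 of its ventricular partner Myl2, a ratio per kilobase of 107 (77.4 to 152) and 274 (195 to 398). The length moved this ratio by more than the counting intervals, to 344 with the longest transcript and 516 with coding length as means of the libraries. Myl4, the other atrial light chain, was at 17.0 and 8.68 beside 3180 and 3887 of Myl3. Sln, sarcolipin, the atrial counterpart of phospholamban, was at 3.01 and 2.25, and Bmp10, a growth factor of atrial muscle, was listed at 0 in both libraries. Nppa, the atrial natriuretic peptide, was at 104 and 72.0, and Kcnj3, a potassium channel subunit of atrial and pacemaker cells, at 133 and 139. All defining atrial light chain and sarcolipin values were thus a small part of the ventricular ones, and how much atrium the lysate contained was not tested. Nppb, a natriuretic peptide raised by wall stress, differed between the libraries at 90.5 and 24.9.

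Genes of the conduction system were low but present. Cacna1g, a T-type calcium channel, was at 70.5 and 43.4 rescaled CPM, Hcn2 and Hcn4, pacemaker channels, at 37.7 and 35.0 and at 18.7 and 17.0, and the regulator Tbx3 at 20.7 and 17.5. Isl1 and Gjd3 were listed at 0 in both libraries.

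Stromal transcripts were mostly matrix and basement membrane. Hspg2, the heparan sulphate proteoglycan perlecan, stood at 1842 and 1606 rescaled CPM, and Col4a1 and Col4a2, chains of basement membrane collagen, at 1464 and 1033 and at 943 and 705. Sparc, a matrix-binding glycoprotein, was at 1113 and 762, and Col3a1, a collagen of the interstitium, at 1036 and 657. All 5 were higher in replicate 1. Gsn, gelsolin, was the exception among the leading members at 1085 and 1328. The 52 genes of this list with a mean of at least 10 rescaled CPM had a median log2 difference of -0.36 between replicate 2 and replicate 1. Eln, the elastin of vessel walls, fell outside 2-fold, at 222 and 68.1, and so did Fmod, fibromodulin, at 20.4 and 7.87 rescaled CPM.

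Vascular genes fell into endothelial genes (41, with 0.525% and 0.451% of the reads) and genes of smooth muscle and pericytes (19, with 0.263% and 0.212%). Aqp1, a water channel of capillaries, was at 367 and 493 rescaled CPM, Cdh5, the endothelial cadherin, at 364 and 288, and Ptprb, an endothelial phosphatase, at 383 and 375. Cav1, a coat protein of caveolae, was at 436 and 332, and Fabp4, a fatty acid binding protein of capillaries and fat, at 300.0 and 308. Further endothelial genes were at least 2-fold higher in replicate 1: Cd93 (528 and 254), Kdr, a VEGF receptor (264 and 129), and Aplnr, the apelin receptor (183 and 90.9). Among mural genes Abcc9, the sulphonylurea receptor that cardiomyocytes also make, led at 837 and 807, followed by Rgs5 of pericytes at 342 and 278. Acta2, smooth muscle actin, was at 347 and 139 rescaled CPM.

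Immune transcripts were mostly those of macrophages. Csf1r, the macrophage growth factor receptor, was at 94.5 and 101, Mrc1, a mannose receptor of resident macrophages, at 89.9 and 79.4, and Lyz2, lysozyme, at 76.8 and 91.1 rescaled CPM. Cd74 and H2-Aa, which serve antigen presentation, were both higher in replicate 2, at 43.8 and 120 and at 19.04 and 51.7, and Cx3cr1, a chemokine receptor, was higher in replicate 1 at 35.1 and 12.9. All 33 genes of the macrophage list had a read in Input and 32 had at least 10 reads in each library. Lymphocyte and granulocyte genes (30) held 0.00387% and 0.00190% of the reads, and a single one, Kit, a receptor of mast cells and progenitors, had at least 10 rescaled CPM, at 24.4 and 9.96. Cd3d, Cd3g, Gzmb, Camp and Cxcr2 were listed at 0 in both libraries.

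Markers of blood and of other tissues were near 0. Of 20 genes of red cells and platelets, 8 were listed at 0 in both libraries, and these were haemoglobin entries, while Alas2, the first enzyme of erythroid haem synthesis, was at 46.4 and 20.7 rescaled CPM. The haemoglobin genes Hba-a1, Hba-a2, Hbb-bs and Hbb-bt share 58.3% (Hbb-bt) to 86.9% (Hba-a2) of their 50-base words with other genes, and the part of this in their 0 was not tested. Genes of skeletal muscle held 0.00815% and 0.00882% of the reads, and Myh4, Tnnc2, Myog and Myod1 were listed at 0. None of 16 genes of lung, thymus and liver reached 10 reads in both libraries, and 9 of them were listed at 0. Ucp1 and Lep of brown and white fat were also at 0, and Adipoq was at 0.334 and 0.321. Plin4, a lipid droplet protein that muscle also makes, was at 219 and 407 rescaled CPM, and Cidea, another, at 22.05 and 17.4. Among genes that were named after their values were seen, the Y-linked Ddx3y was at 149 and 126 and the inactive X transcript Xist at 4.01 and 0.321.

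The Input libraries differed in particular gene groups. Of the 8697 genes with a mean of at least 10 rescaled CPM, 67 (0.77%) were at least 2-fold higher in replicate 2 and 116 (1.33%) in replicate 1. With TMM (trimmed mean) scaling the balance turned round, to 87 higher in replicate 2 and 68 in replicate 1. With a single library on each side this has no test, and intervals cover counting error only. Clock genes lay on both sides. Of 18 of them at that level, Tef, Per1, Per3, Dbp and Per2 were at least 2-fold higher in replicate 2, and Nfil3, Npas2 and Arntl in replicate 1. Per2, a repressor of the clock, stood at 7.35 and 43.5 rescaled CPM, 5.93-fold higher in replicate 2 (3.83 to 9.61), and Dbp, an output factor, at 14.7 and 50.5. Arntl, the activator that the Per proteins repress, stood at 20.04 and 3.05, 6.56-fold higher in replicate 1 (3.86 to 11.6), and its relative Npas2 at 22.05 and 3.37.

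The immunoprecipitates differed in the same genes, though not by replicate number. With replicate 1 given first, the control antibody's libraries had 81.0 and 15.9 rescaled CPM of Per2 and those of the Cnot3 antibody 12.9 and 134. For Arntl the control libraries had 2.92 and 19.8 and the Cnot3 libraries 26.7 and 3.29. The libraries with more Per2 had less Arntl in each group, and these were replicate 2 of Input and of Cnot3 RIP but replicate 1 of control IgG RIP. The labels hold nothing that sets these 3 libraries apart from the others.

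Among the genes with the largest ratios towards replicate 2 were Fkbp5, Zbtb16 and 2 metallothioneins. Fkbp5, a chaperone of the glucocorticoid receptor, stood at 11.02 and 76.0 rescaled CPM, a 6.90-fold difference (4.84 to 10.1). Zbtb16, a transcription factor, was the most abundant of the 8 genes with the largest ratios on that side, at 90.9 and 484, or 5.32-fold (4.70 to 6.05). Mt2 and Mt1, metal-binding proteins, were at 6.35 and 44.8 and at 39.4 and 141. Arrdc2, Fam107a and Map3k6 were also among the 8, between 3.69-fold and 6.61-fold. Of 27 stress and immediate-early genes at this level, 6 were at least 2-fold higher in replicate 2 (Tsc22d3, Per1, Mt1, Ddit4, Fkbp5 and Mt2), while Egr1 (52.4 and 14.0) and Nr4a1 (38.4 and 10.1), both induced within minutes in stimulated cells, were higher in replicate 1. Sgk1, a kinase, and Dusp1, a phosphatase, of the same list, stayed within 2-fold, at 76.5 and 71.0 and at 99.9 and 83.1. Tcap, which caps titin at the Z-disc, was the single sarcomere gene past 2-fold, at 365 and 1027.

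Proliferation and growth genes were on the side of replicate 1. Mki67, the nuclear protein of cycling cells, was at 84.5 and 20.9 rescaled CPM, 4.05-fold higher in replicate 1 (3.26 to 5.04), and Top2a, the topoisomerase of dividing cells, at 32.7 and 6.59, 4.97-fold higher (3.42 to 7.34). Cell cycle genes (34) held 0.0410% and 0.0201% of the reads, and all 6 of them with at least 10 rescaled CPM were lower in replicate 2. Adam19, a membrane protease, was at 146 and 35.2, Fbn2, a fibrillin of growing tissue, at 19.4 and 4.66, and Dnm3os, a noncoding RNA that carries microRNAs, at 16.4 and 4.02. Fetal and growth genes at this level numbered 11, and Mest and Meg3, both imprinted, were past 2-fold. The most abundant members of this list were Actb, the cytoskeletal actin, at 682 and 445, and Tmsb4x at 306 and 216. Actb held 42.1% of the reads of the list, and its log2 ratio of -0.61 was the median of the list. Igf2, an imprinted growth factor, was at 160 and 111. The other fetal genes Dlk1, Igf2bp1, Lin28a, Afp, Mirg, Hmga2 and Tmsb15a were listed at 0 in both libraries.

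**Figure D4:**
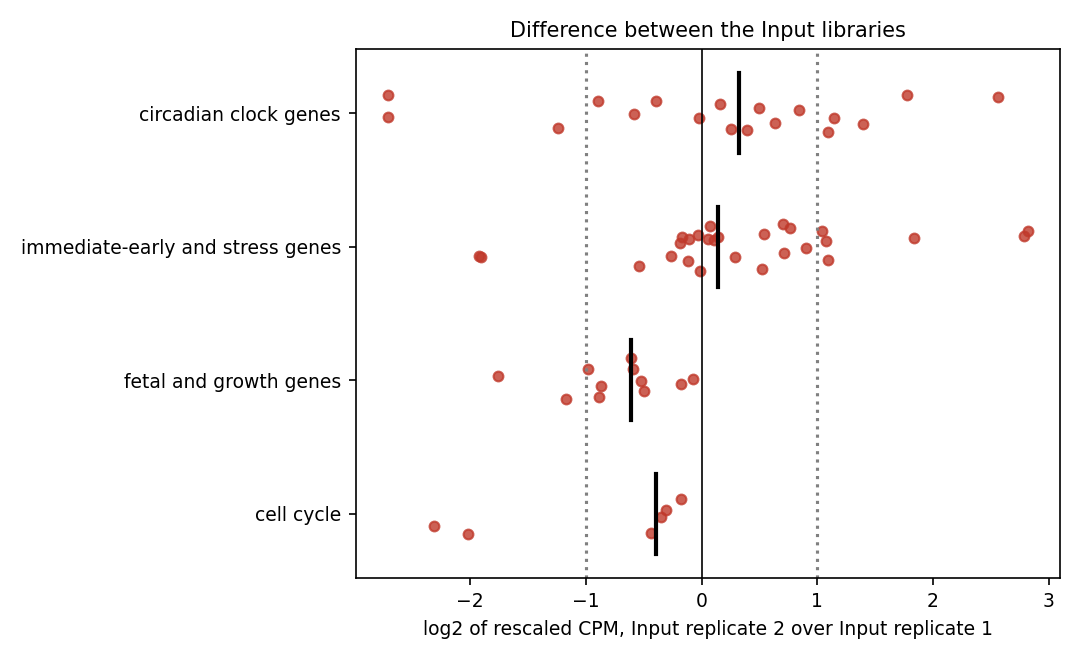
The log2 ratio of rescaled CPM in Input replicate 2 over replicate 1 for the genes of 4 lists with a mean of at least 10 rescaled CPM, with 1 point per gene, a black bar at the median and dotted lines at 2-fold. Clock genes spread to both sides, from Arntl and Npas2 on the left to Per2 on the right. The medians of the fetal and growth list and of cell cycle genes are -0.61 and -0.39, and the first is the value of Actb. Per1 is in both of the upper lists.

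Nuclear noncoding RNAs added a large share for few genes. Malat1, a nuclear speckle RNA on chromosome 19 (5795690 to 5802672, minus strand), was the fourth most abundant entry, at 21641 and 13901 rescaled CPM. Neat1, the scaffold of paraspeckles, was at 2512 and 1962. Rpph1, the RNA of ribonuclease P, and Rmrp, that of ribonuclease MRP, are short, so their levels per kilobase were high, at 5014 and 5416 and at 3320 and 2578 rescaled CPM per kilobase. Kcnq1ot1, the antisense RNA of an imprinted cluster, was at 287 and 94.2 rescaled CPM. Whether the counting used strand is not given in the sources used here, so antisense RNAs cannot be told from overlapping genes.

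The lysate was set against all 4 immunoprecipitates, averaged over both antibodies. The aim was to see which transcripts took another share of the lysate than of the pulled-down RNA. The 6 libraries were fitted together with limma on log2 of rescaled CPM plus 0.25, with TMM scaling, and Input was compared with the mean of both RIP groups. Of 13047 genes tested, 664 (5.09%) were higher in Input and 680 (5.21%) were lower, 1344 (10.3%) in all, with Benjamini-Hochberg adjustment and a threshold of 0.05. All 664 higher genes had both Input libraries above all 4 immunoprecipitates. Of the 680 lower genes, 587 had both Input libraries below all 4, and the rest overlapped with an immunoprecipitate. The calls were made on these same libraries, so these counts lend them no separate support. The share without overlap over all tested genes was not computed. The edgeR quasi-likelihood test on the recovered reads called 653 higher and 489 lower. Fewer libraries changed this greatly: 4 and 43 were called by limma without Input replicate 1 and 0 and 0 without Input replicate 2, where 909 and 1196 had an unadjusted p under 0.05 and edgeR called 0 and 0. The counts were 59 and 78 without control IgG RIP replicate 1, 135 and 135 without its replicate 2, 955 and 1229 without Cnot3 RIP replicate 1, and 431 and 505 without its replicate 2. Without TMM scaling the median of all genes moved from -0.04 to 0.17, and 78.1% of calls were higher in place of 49.4%. A limma fit with the replicate number as a block called 286 higher and 403 lower. With the numbers of control IgG RIP crossed, an alternative chosen after seeing the data, it called 1436 and 1707.

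Before any test, mitochondrial genes held 4.26% to 4.65% of the reads in the immunoprecipitates and ribosomal proteins 0.0666% to 0.10002%, below both Input libraries, and contractile genes held more than in Input. The last rested on Ttn: without it contractile genes held 9.42% and 10.5% in Input and 8.41% to 10.8% in the immunoprecipitates. Transcript length went with the difference. Genes whose longest transcript has up to 1000 bases held 2.56% and 2.98% of the reads in Input and 1.01% to 1.55% in the immunoprecipitates. Genes of more than 16000 bases held 11.2% and 10.98% in Input and 16.6% to 27.7% in the immunoprecipitates. Most of that gap was Ttn as well, since without it the class held 2.13% and 2.01% in Input and 2.44% to 3.19% in the immunoprecipitates. The median log2 fold change fell step by step from 0.81 in the shortest class to -0.64 in the longest, which held 31 tested genes, and the Spearman correlation across 12436 genes was -0.50, a description only, since all genes share the 6 libraries. Ttn was lower in Input in all libraries, at 90768 and 89694 rescaled CPM against 141454 to 245191. It did not pass the test (log2 fold change -1.15, SE 0.77, limma adjusted p = 0.346). That SE rests more on a trend over genes of like level than on the spread of Ttn itself. The trend had 6.23 prior degrees of freedom, against 3 residual ones. With DESeq2, an alternative test, Ttn was called lower in Input, and with edgeR quasi-likelihood it was not called.

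**Figure D5:**
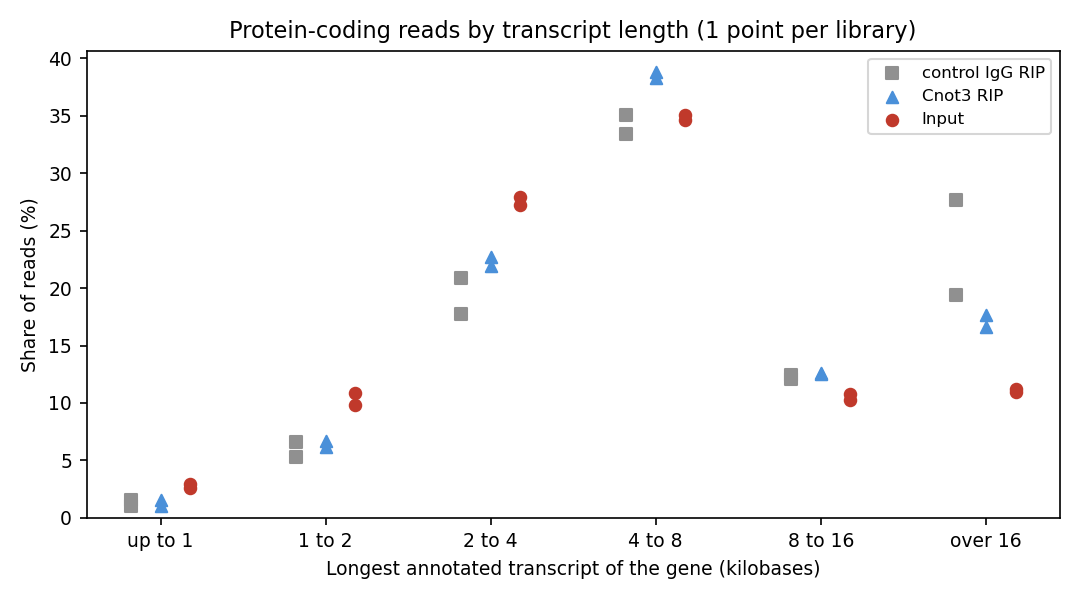
Share of all rescaled reads that fell in protein-coding genes of each class of longest annotated transcript, with 1 point per library (red circles Input, blue triangles Cnot3 RIP, grey squares control IgG RIP). Input lies above all immunoprecipitates in the 3 classes up to 4 kilobases and below all of them in the 2 classes over 8 kilobases.

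Short mRNAs of ribosomes and the respiratory chain were among those higher in Input. Of 56 cytosolic ribosomal protein genes tested, 30 (53.6%) were higher and 0 lower, against 5.09% called higher over all genes tested. Their median log2 fold change was 1.09, against -0.04 over all genes tested. Rps20, a protein of the small subunit, stood at 39.1 and 25.7 rescaled CPM in Input and at 6.28 to 9.24 in the immunoprecipitates (log2 fold change 1.801, SE 0.24, limma adjusted p = 0.00996). In complex I 20 of 36 were higher, in complexes II to IV 13 of 28, in ATP synthase 7 of 14 and among mitochondrial ribosomal proteins 23 of 75, with medians of 0.95, 0.92, 0.92 and 0.67 and none lower. Cox7a1 stood at 481 and 574 against 120 to 254, and Atp5e, a small subunit of the synthase, at 213 and 238 against 53.9 to 98.0. These lists hold many short genes, and short genes were called higher more often whatever their list. Of tested protein-coding genes, 27.8% were called higher with a longest transcript up to 1000 bases. From 1001 to 2000 bases 13.6% were, and from 2001 to 4000 bases 4.61%. Relative to the median of genes of the same length class, the medians were 0.55 for cytosolic ribosomal proteins, 0.33 for complex I, 0.23 for complexes II to IV, 0.25 for ATP synthase and 0.29 for mitochondrial ribosomal proteins. Outside these lists, translation factors gave 8 higher and 0 lower of 25, with a median longest transcript of 2916 bases. Their median log2 fold change was 0.68, or 0.51 relative to the same length class.

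These calls depended on the Input and control IgG RIP libraries. In each of the 5 lists 0 members were called higher without Input replicate 1 and 0 without Input replicate 2. Without control IgG RIP replicate 1, 9 ribosomal protein genes, 0 of complex I, 1 of complexes II to IV, 1 of ATP synthase and 1 mitochondrial ribosomal protein gene were called, and without control IgG RIP replicate 2 these were 18, 3, 2, 2 and 3. In the same order they were 30, 27, 19, 11 and 31 without Cnot3 RIP replicate 1 and 27, 15, 10, 7 and 16 without Cnot3 RIP replicate 2. The log2 fold change of Rps20 kept its direction in every fit that left out a library, between 1.57 and 2.04.

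In other metabolic and muscle lists a smaller share of members was called, to be read against the 5.09% called higher over all genes. Idh3a, a subunit of isocitrate dehydrogenase, was the only 1 of 18 citric acid cycle genes that was higher in Input, at 671 and 676 against 297 to 331 rescaled CPM, and 3 of 23 fatty acid oxidation genes were (Acot13, Etfb and Slc25a20). Sarcomere genes gave 11 higher and 1 lower (Myh7) of 52 tested, with a median of 0.31. Myoz2, a Z-disc protein that binds calcineurin, stood at 839 and 1035 against 236 to 320 (log2 fold change 1.47, SE 0.22, limma adjusted p = 0.0134), and Myl2 at 4361 and 4800 against 1222 to 2132. Calcium handling genes gave 4 of 22, led by Tmem38a, a potassium channel of the reticulum, at 478 and 471 against 161 to 227. Genes of cytosolic energy transfer and glycolysis gave 5 higher and 1 lower of 33, and mitochondrial carriers and channels 4 higher of 16. Most of the higher calls in these lists were lost without control IgG RIP replicate 1, and all were lost without either Input library.

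Cell type lists gave between 0 and 4 higher calls each, against 5.09% called higher over all genes. Fibroblast and matrix genes gave 2 higher (Mgp and Ogn) and 1 lower (Cyr61) of 54, with a median of 0.02 that changed sign under 6 alternatives. Endothelial genes gave 4 higher of 41, which were Tspan7, Fabp4, Gpihbp1 and Pdpn, and macrophage genes 3 of 32, which were Lyz2, Laptm5 and C1qb. Smooth muscle and pericyte genes gave 0 of 18, in which the median of 0.12 changed sign under 4 alternatives. Nppa and Stard10 were the 2 of 9 atrial genes called, with Nppa at 104 and 72.0 against 22.2 to 35.9 rescaled CPM. Cell type calls other than that of Nppa ended without control IgG RIP replicate 1, apart from that of Cidea, a lipid droplet protein, and all ended without an Input library.

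The largest differences belonged to small noncoding RNAs on the side of Input. Rpph1 stood at 1599 and 1728 rescaled CPM in Input and at 87.3 to 199 in the immunoprecipitates, 11.7-fold higher (log2 fold change 3.55, SE 0.38, limma adjusted p = 0.00843). Vaultrc5, a vault RNA, stood at 116 and 85.2 against 11.9 to 26.6, and Rmrp at 933 and 725 against 116 to 186. Ybx1, an mRNA-binding cold shock protein, was the mRNA with the largest difference under the naming rule, at 128 and 133 against 21.97 to 32.2 (log2 fold change 1.96, SE 0.20, limma adjusted p = 0.00715). Hist1h4d, Igf2, Bag1, Slc17a7 and Uqcc2 were also among the 10, between 3.03-fold and 3.37-fold. Rpph1, Rmrp and Ybx1 were still called without Input replicate 1 and were lost without Input replicate 2, where no gene passed.

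Genes lower in Input were led by the gamma protocadherins, adhesion molecules made from a cluster of variable first exons. Pcdhga8 stood at 5.01 and 4.66 rescaled CPM in Input and at 21.6 to 136 in the immunoprecipitates (log2 fold change -3.49, SE 0.31, limma adjusted p = 0.00399). Pcdhgb5, Pcdhga9, Pcdhga6 and Pcdhga4 were also among the 10 largest, but members of this cluster share their last exons, so that reads could be split between them and the separate values are uncertain. Lrrtm3 and Lrrc4, leucine-rich synaptic adhesion proteins, were also higher with the control antibody than with the Cnot3 antibody. Lrrtm3 stood at 9.02 and 7.55 in Input, at 119 and 89.6 with the control antibody and at 34.2 and 21.6 with the Cnot3 antibody. In the same order, Lrrc4 stood at 2.00 and 1.29, at 18.2 and 19.97 and at 9.82 and 3.78. Nr6a1, an orphan nuclear receptor of germ cells, stood at 1.34 and 3.21 in Input, at 4.82 and 8.93 with the control antibody and at 27.03 and 44.3 with the Cnot3 antibody, and it was not called against control IgG RIP alone (log2 fold change -1.77, limma adjusted p = 0.0667). Among stress genes Nfkbia, the inhibitor of NF-kappaB, and Dusp1, which acts on MAP kinases, were called lower, but they were high only with the Cnot3 antibody: Dusp1 stood at 99.9 and 83.1 in Input, at 44.5 and 115 with the control antibody and at 862 and 1705 with the Cnot3 antibody. No gene was called lower without Input replicate 2, and 43 were without Input replicate 1.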

How the data were processed

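RNA from heart lysate and from immunoprecipitates was sequenced in 6 libraries, 2 a group, with groups and replicate numbers taken from the labels. The authors deposited CPM, a value per gene symbol and library that sums to 1000000 when Rn45s is counted. The submitters' processing notes name mm10 as the build and, as tools without a role, TopHat2 2.1.0, Bowtie2 2.2.5, edgeR, FastQC and CASAVA 1.8. Neither the counter nor the annotation, kit or strand setting is given in the sources used here. Dividing by the smallest step recovered whole reads for 100% of the values within 0.01 read.

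Rn45s, Lars2 and Mir6236 were removed and each library was rescaled. Lengths and shared 50-base words came from GENCODE M21 (mm10 coordinates), to which 23376 symbols matched directly and 650 through synonyms, while 395 did not match. Shares count each gene once, in the first list that holds it. The comparison used limma 3.58.1 (R 4.3.3) with a trended prior on log2(rescaled CPM / TMM factor + 0.25), after a filter at 10 reads (edgeR 4.0.16), with 3 group means. Fold changes on that scale understate those of low genes. Because the unit was CPM, limma was the main test, and edgeR quasi-likelihood and DESeq2 1.42.0 on recovered reads were alternatives (653 and 661 higher, 489 and 850 lower). The script was tested on simulated data.

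The members and lists were chosen with earlier results of these data known. Genes were named by rule: the 25 most abundant, the 15 most abundant per kilobase, up to 6 leading members of each list and markers at 0, all isoform pairs, up to 10 genes each way with the largest fold change (mean of at least 10 in the higher side, no overlap), up to 4 called members of a list, and up to 8 genes each way between the Input libraries. Placeholder symbols were only counted. Some genes that the rule names, and 1 sequence, are not reported here.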

Additional observations from a re-analysis of the deposited data

How the results depend on the processing

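Calls against the immunoprecipitates depended on the libraries more than on scaling, pseudocount or test. Leaving out a library gave 0 to 955 higher and 0 to 1229 lower genes. Without a filter 354 were higher, and without TMM factors 209 were lower. Against control IgG RIP alone the counts were 188 and 307, and against Cnot3 RIP alone 414 were higher. Cyr61 and Dusp1, lower in the comparison with both groups, had log2 fold changes of 0.33 and 0.10 against control IgG RIP alone. The replicate numbers did not pair the libraries across all groups. The differences between replicates correlated at 0.33 for Input with Cnot3 RIP and at -0.31 for each of these with control IgG RIP. With the replicate block the counts were 286 and 403, and with the pairing of control IgG RIP crossed, an alternative chosen after seeing the data, 1436 and 1707.

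Class shares, as means of both Input libraries, moved as follows. With only Rn45s removed, contractile genes held 16.8%, calcium handling 3.85%, mitochondrial 6.18%, translation factors 0.569% and ribosomal 0.194%. Per kilobase, the shares were 12.6% contractile, 3.86% calcium handling, 13.3% mitochondrial, 5.32% cytosolic energy, 0.579% ribosomal, 0.718% translation factors, 1.23% stromal, 0.197% immune and 0.0128% blood. Without the leading gene they were 10.9% contractile, 2.51% calcium handling, 2.21% cytosolic energy, 0.193% ribosomal, 0.493% translation factors and 0.0173% other tissues. Without placeholder symbols the ribosomal share was 0.222%.

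Ratios of isoform pairs depended on the length used. With the longest transcript they were 19276 for Tnni3 to Tnni1, 344 for Myl2 to Myl7, 2.99 for Cox7a1 to Cox7a2, 0.311 for Cpt1b to Cpt1a, 1.82 for Hk2 to Hk1, 225 for Pgam2 to Pgam1, 2.39 for Ldhb to Ldha, 1.73 for Pygm to Pygb and 6.03 for Eef1a2 to Eef1a1. With coding length they were 7237 for Tnni3, 47.4 for Actc1 to Acta1, 516 for Myl2, 1688 for Pln to Sln, 2.05 for Cox7a1, 10.4 for Cox8b to Cox8a, 59.4 for Slc25a4 to Slc25a5, 0.209 for Cpt1b, 27.3 for Slc2a4 to Slc2a1, 2.41 for Hk2, 107 for Pgam2, 1.86 for Ldhb and 1.28 for Pygm. Nppa to Nppb was 1.04 and 2.61 in the Input libraries. Between the Input libraries, 25 and 21 genes differed at least 2-fold at a mean of at least 50 rescaled CPM, and 68 were higher in replicate 1 with TMM factors. Input replicate 1 had the fewest reads of the 6 libraries after removal, and with 2 Input libraries no statement on genes near the floor is possible.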
